A study of Mus musculus with 10 samples.

Results

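The 10 genes described here code for heat shock proteins and chaperones of the cytosol, the endoplasmic reticulum (ER) and the mitochondria, namely Hspa8, Hspa4, Hsph1, Hsp90aa1, Hsp90ab1, Hspa5, Hsp90b1, Hspa9, Hspd1 and Hspe1. They were chosen by name, and Hspa5 was included because its mRNA is known for a claim of cap-independent translation. Each is listed with 1 transcript, so that they are 10 of 15269 listed transcripts, of which 14534 are coding. Ribosome footprints had been sequenced from CGR8, a line of mouse embryonic stem cells of strain 129 that was cultured without feeder cells. Untreated control cells were compared with cells kept for 10 min in 1 µM DMDA-PatA, for 10 min in 2 µg/ml harringtonine or for 20 min in 0.2 mg/ml puromycin, with 2 libraries for each of the 4 conditions. The amount of DMSO was made equal in all samples, including the control. A further 2 libraries hold whole transcriptome reads of untreated cells, and the transcriptome of drug treated cells was not analysed here.

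Chaperones bind unfolded proteins and help them fold. Hsp70 proteins hold short stretches of a client in cycles of ATP hydrolysis. They are loaded by J-domain cochaperones and emptied by nucleotide exchange factors, among them the Hsp110 proteins Hspa4 and Hsph1. Hsp90 proteins act later, on nearly folded clients such as kinases and steroid receptors. Hspd1 forms the chamber of the mitochondrial chaperonin and Hspe1 its lid. Translation of a typical mRNA begins when the eIF4F complex, with its RNA helicase eIF4A, binds the cap and a ribosome scans the 5' UTR to the start codon. DMDA-PatA is an analog of pateamine A and acts on eIF4A. Harringtonine is an elongation inhibitor that the paper describes as partly selective for start sites, without being specific to them. Ribosomes further along the ORF can run off. Puromycin resembles an aminoacyl-tRNA and releases the growing chain.

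The start codons mark the border between the 5' UTR and ORF counts used below. Their surroundings are shown because all results turn on the reads on either side of this border. In its own 5' UTR comparison the paper cut off the end of the 5' UTRs to limit carryover from the start codon. Here the deposited 5' UTR values were used without a further cut. In the following sequences, read from the listed transcripts in GENCODE M21 on GRCm38, the start codon is in capitals, with 12 nt of 5' UTR before it and the 15 nt that follow it.
Hspa8: acacaagcaaccATGtctaagggacctgca
Hspa4: gtagccggcgccATGtcggtggtgggcata
Hsp90aa1: cattcagccacgATGcctgaggaaacccag
Hsp90ab1: tttcccgtcaagATGcctgaggaagtgcac
Hspa5: ctcagcgccggcATGatgaagttcactgtg
Hsp90b1: cggccacgcaccATGagggtcctgtgggtg
Hspd1: cgccccgcagaaATGcttcgactacccaca
Hspe1: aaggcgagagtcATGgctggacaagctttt
The 3 bases in capitals lie on chromosome 9 at 40801923 to 40801925 for Hspa8, on chromosome 11 at 53300164 to 53300166 for Hspa4, and on chromosome 2 at 34772322 to 34772324 for Hspa5. They lie on chromosome 12 at 110695678 to 110695680 for Hsp90aa1, on chromosome 17 at 45571909 to 45571911 for Hsp90ab1, and on chromosome 10 at 86705353 to 86705355 for Hsp90b1. Those of Hspd1 and Hspe1 lie on chromosome 1 at 55086937 to 55086939 and at 55088410 to 55088412. Hspa8, Hspa5 and Hspe1 are on the plus strand and the other 5 on the minus strand. The start codon is in exon 1 of Hspa4, Hspa5, Hsp90b1 and Hspe1 and in exon 2 of Hspa8, Hsp90aa1, Hsp90ab1 and Hspd1. Each of the 8 sequences has A or G at the third base before the start codon, as had 85.0% of 11056 coding transcripts. Hspe1 alone among them has G right after the start codon, as had 52.1% of those transcripts. Hspd1 and Hspe1 are transcribed away from each other, and the ends of their listed transcripts are 107 nt apart. The 5' UTRs listed have 105 nt (Hsp90ab1) to 370 nt (Hspa8) against a median of 176 nt, and their GC content was 63.8% to 78.2% in the 9 transcripts measured against a median of 63.9%. An ATG occurs in the 5' UTRs of Hspa8 and Hspd1, and there is none in that of Hspa5, Hspa4, Hspa9, Hsp90aa1, Hsp90ab1, Hsp90b1 or Hspe1. At least 1 ATG was found in 52.6% of the 5' UTRs of those coding transcripts. The ORF listed for Hsph1 begins at base 263 and has 2574 nt, while in GENCODE M21 the coding sequence of this transcript begins at base 134 and has 2442 nt without the stop codon. Its sequence was therefore not used, and its values per length below rest on the listed length.

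The ribosome profiling libraries held 1027314 to 11161453 reads on coding transcripts, with the fewest after DMDA-PatA, and the transcriptome libraries held 25508180 and 59271162. The deposited values are reads divided by size factors, which by the methods bring the spike-in RNA to equal read numbers, and they are called normalized footprints here. The spike-in reads were not analysed here, so this scale was not checked and is taken as given in all changes on the spike-in scale. Stem cell markers (Pou5f1, Nanog, Sox2 and 7 others) were detected in all 4 untreated libraries. All 6 markers on a fibroblast list were detected as well, with 143020 and 348203 ORF reads in sum in the transcriptome libraries against 32858 and 69826 for the 10 stem cell markers. Col1a1 had 85853 and 210557 and Acta2 22935 and 55878 of these fibroblast reads. Thy1, the lowest of this list, had 77 and 192, against at least 238 and 603 for each stem cell marker. In the control footprints the fibroblast list summed to 29131 and 35899 reads and the stem cell list to 41751 and 50192. The 5 endoderm markers found summed to 99 to 268 reads and the 4 trophoblast markers to 1580 to 4469 reads in these libraries, and no marker was at 0. Their part in the results below was not tested, and in such bulk libraries fewer cells of a type and less RNA per cell cannot be told apart.

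Reads that match more than 1 place in the genome had been left out by the authors, and 6 of the 9 genes whose ORF could be searched had such copies (Hsph1 was not searched). Each 30 nt window of an ORF was therefore looked up on the chromosomes of GRCm38. A window was counted as unique if it lay in 1 exon and occurred once. Windows across exon junctions thus lower the unique share as well as copies do. For Hspa8 only 2.83% of the windows occurred once, and 9 further loci held a copy of at least 90% identity to at least 50% of the ORF, the closest at 99.7%. The unique share was 7.93% for Hsp90aa1 (2 copies), 15.2% for Hspe1 (5 copies) and 15.4% for Hspd1 (3 copies). It was 60.6% for Hspa9 and 67.2% for Hsp90ab1, with 1 copy each of 92.1% and 91.0% identity. Of the windows of these genes 16.3% and 20.6% lay in 1 exon and occurred more than once, and the rest crossed exon junctions. No copy was found for Hspa5, Hspa4 and Hsp90b1, which had 89.5%, 79.1% and 79.5% unique windows, and their other windows crossed exon junctions. The median unique share over 11201 coding ORFs was 81.0%, and the median share of windows in 1 exon that occurred more than once was 0%. The 5' UTRs were less affected, with 74.8% unique windows for Hsp90aa1 and at least 95.6% for the 8 other genes measured. Hspa8, the constitutive Hsp70 of the cytosol, had 12 and 16 ORF reads in the control libraries and 14 and 31 in the transcriptome. Its values below rest on these few reads and are uncertain, and the levels of Hsp90aa1, Hspd1 and Hspe1 count only a small part of each ORF.

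Without drug, footprints on the ORF of the 10 genes differed by more than 3 orders of magnitude. Per length, in reads per kilobase after scaling to the reads on coding ORFs (RPKM), Hsp90ab1, the constitutive cytosolic Hsp90, was highest with 3054 and 3044 in the 2 control libraries. Hspa4 followed with 1072 and 1048, Hspa5, the Hsp70 of the ER also called BiP, with 1032 and 1071, and Hsp90b1, the Hsp90 of the ER also called Grp94, with 1000.1 and 809.5. The 3 genes were close to each other, and Hspa4 and Hspa5 changed places between the libraries. Hspa9, the mitochondrial Hsp70, had 460.2 and 470.3. Lower values were found for Hsp90aa1 (167 and 158), Hsph1 (129.6 and 144), Hspd1 (98.7 and 85.3), Hspe1 (79.0 and 85.6) and Hspa8 (0.680 and 0.778). The ranges of Hspd1 and Hspe1 overlapped. Counted per 100 unique windows instead, Hsp90aa1 had 1945 and 2149 control reads and Hsp90ab1 4194 and 4873, so that the heat inducible Hsp90aa1 stood above Hspa5 with 1065 and 1289. Hspa8 stayed lowest on this scale, with 22.2 and 29.6 control reads per 100 unique windows.

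Translation efficiency is the ratio of control footprints to transcriptome reads on the ORF, after the transcriptome reads were scaled to the same sum. Its median over 9888 coding ORFs was 0.978 and 0.972 in the 2 pairs of libraries. The ER chaperones lay near this median, with 0.873 ± 0.0779 for Hspa5 and 0.942 ± 0.195 for Hsp90b1 (mean ± SD, n = 2 pairs). All 8 others lay above it. They ranged from 1.59 ± 0.0265 for Hspa4 over 2.10 ± 0.372 for Hsph1, 2.29 ± 0.168 for Hsp90ab1, 2.58 ± 0.350 for Hspa9 and 2.74 ± 0.0296 for Hspe1 to 5.73 ± 0.216 for Hsp90aa1. Hspa8 and Hspd1 had 1.71 ± 0.200 and 1.71 ± 0.0321. For Hsp90aa1 the value was higher than that of 98.9% of the ORFs in the pair where it ranked lower, while only 7.93% of its ORF windows are unique. These ratios are a description and were not tested.

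**Figure D1:**
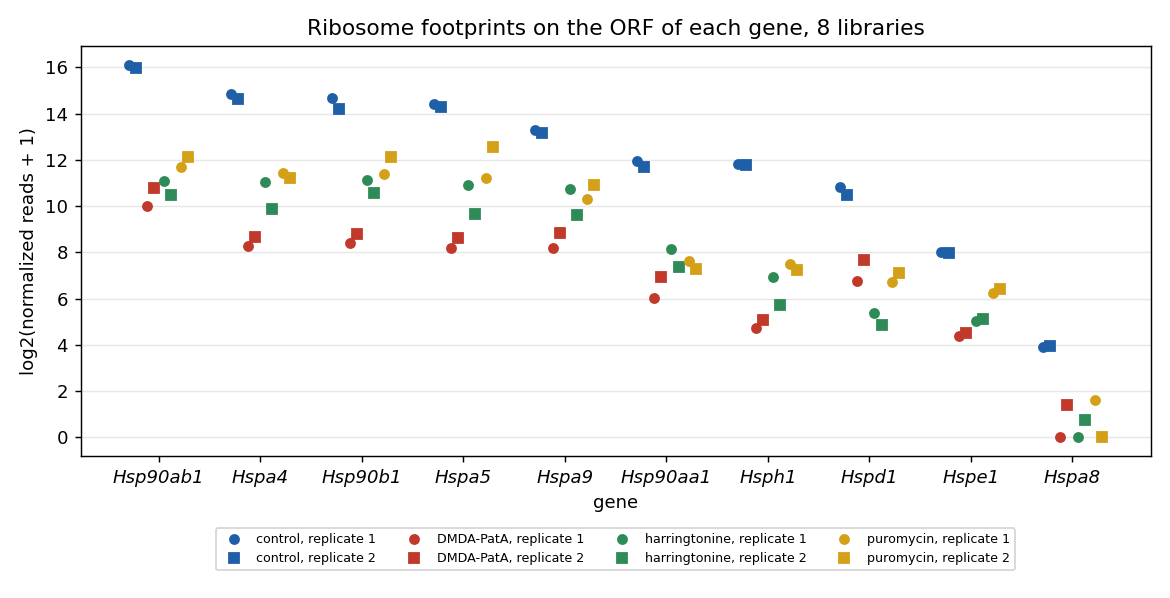
Normalized ribosome footprints on the ORF of the 10 genes, as log2(normalized reads + 1), for the 2 libraries each of control, DMDA-PatA, harringtonine and puromycin (circles replicate 1, squares replicate 2), ordered by the mean of the control. For every gene all 6 drug libraries lie below both control libraries on this scale (relative to the typical transcript Hspd1 was called higher with DMDA-PatA and Hspe1 with puromycin), and for Hspa8 3 drug libraries are at 0 reads.

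All 3 drugs lowered the ORF footprints of all 10 genes on the spike-in scale, while relative to the typical transcript, as given further on, Hspd1 was called higher with DMDA-PatA and Hspe1 with puromycin, and the values of Hspe1 with DMDA-PatA and Hspa5 with puromycin were above 0 without passing. The count test was the quasi-likelihood test of edgeR, adjusted after Benjamini and Hochberg over 12499 transcripts. It called 10 of 10 genes lower with each drug, with adjusted p of at most 3.14e-06 (DMDA-PatA), 2.85e-06 (harringtonine) and 0.000379 (puromycin). Of all transcripts tested, 99.3% were called lower with DMDA-PatA, 92.9% under harringtonine and 90.1% with puromycin, so this count does not set the 10 genes apart. Their median log2 fold change was -5.45 with DMDA-PatA, -4.09 under harringtonine and -3.57 with puromycin, against -4.32, -2.97 and -2.48 over all transcripts tested. The 3 comparisons share the control libraries, and the drugs were not tested against each other. The libraries of a condition are biological replicates according to the methods, and p-values measure the spread between them. ORF length moved with the change over all transcripts, and 9 of the 10 ORFs have 1719 to 2574 nt. The median of the 3801 ORFs of 1500 to 3000 nt was -4.56 with DMDA-PatA, -3.33 under harringtonine and -2.92 with puromycin, and 7, 8 and 6 of the 9 genes lay below it.

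Among the cytosolic Hsp70 and Hsp110 genes, Hsph1 had the strongest decrease with DMDA-PatA of the 10. Hsph1 lies on chromosome 5 from 149616845 to 149636209 on the minus strand, and its ORF carried 3581 and 3557 normalized footprints in the control, 25.3 and 32.5 with DMDA-PatA, 121 and 51.8 under harringtonine and 179.9 and 152 with puromycin. All drug libraries lay far below the controls, with mean decreases of 124 fold, 41.4 fold and 21.5 fold. Hspa4, the other Hsp110 protein, went from 29059 and 25462 to 306 and 407 with DMDA-PatA, 2092 and 939 under harringtonine and 2786 and 2351 with puromycin. Its log2 fold changes were -6.26 (standard error 0.58), -4.17 (0.52) and -3.41 (0.51), and those of Hsph1 -6.95 (0.58), -5.38 (0.53) and -4.43 (0.51). The harringtonine libraries differed for both genes, and without harringtonine replicate 1 the log2 fold change was -4.86 for Hspa4 and -6.10 for Hsph1. Hspa8 had 14.1 and 14.5 normalized footprints in the control, 0 and 1.62 with DMDA-PatA, 0 and 0.700 under harringtonine and 2.07 and 0 with puromycin. A count of 0 allows up to 1.89 normalized footprints in DMDA-PatA replicate 1, 3.04 in harringtonine replicate 1 and 3.73 in puromycin replicate 2 (3 counts). From 28 control reads against 2, 1 and 1 reads, the ratio of control to drug for Hspa8 was 20.2 (95% exact counting interval 5.09 to 175) with DMDA-PatA, 34.6 (5.73 to 1416) under harringtonine and 18.5 (3.05 to 756) for puromycin. Intervals and such limits cover counting error only.

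The cytosolic Hsp90 genes fell with each drug. Hsp90ab1 carried 71194 and 63606 normalized footprints in the control, 1029.7 and 1755 with DMDA-PatA, 2171 and 1429 under harringtonine and 3321 and 4479 with puromycin. Its mean fell 48.4 fold, 37.4 fold and 17.3 fold, with log2 fold changes of -5.60 (standard error 0.57), -5.23 (0.56) and -4.11 (0.53). Hsp90aa1, the Hsp90 that rises under heat, went from 3945 and 3351 to 64.4 and 122 with DMDA-PatA, 286 and 164 under harringtonine and 194 and 155 with puromycin. The log2 fold changes of Hsp90aa1 were -5.30, -4.02 and -4.39. Under harringtonine Hsp90ab1 had the larger decrease of the pair, and with puromycin Hsp90aa1, a difference between genes that was not tested.

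Hspa5 lost nearly all of its ORF footprints with the eIF4A drug. It carried 21759 and 20242 normalized footprints in the control, of which 291 and 394 were left by DMDA-PatA, a 61.3 fold decrease of the mean (log2 fold change -5.94, standard error 0.57, adjusted p = 2.33e-24 in edgeR's quasi-likelihood test). This is below the median of all transcripts. The drug acts on eIF4A, and whether the translation of Hspa5 depends on the cap was not tested. Under harringtonine 1922 and 809.9 were left, and the log2 fold change was -3.94 (standard error 0.52, -4.70 without harringtonine replicate 1). With puromycin 2362 and 5995 were left, and the log2 fold change was -2.33 (standard error 0.48). The puromycin libraries were 9.21 fold and 3.38 fold below the same-numbered control, and without puromycin replicate 2 the log2 fold change was -3.15. Hsp90b1, the other ER chaperone, went from 25827 and 18739.7 to 335 and 449.7 with DMDA-PatA, 2251 and 1502 under harringtonine and 2664 and 4518 with puromycin. Its log2 fold changes were -5.83 (standard error 0.57), -3.57 (0.51) and -2.63 (0.49), each within 1 standard error of the value of Hspa5. Over the 3985 ORFs with at least 1000 control reads, the 3 whose log2 fold changes with the 3 drugs lay nearest to those of Hspa5 were Rcbtb1 (-5.85, -4.09 and -2.22), Zswim1 (-6.07, -4.03 and -2.20) and Riok1 (-6.02, -3.70 and -2.27), at Euclidean distances of 0.204, 0.204 and 0.260.

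The mitochondrial chaperones were spread more widely. Hspd1 carried 1820.2 and 1410.5 normalized footprints in the control, 108 and 205 with DMDA-PatA, 40.6 and 28.0 under harringtonine and 105 and 136 with puromycin. Its log2 fold changes were -3.37 with DMDA-PatA (standard error 0.47), -5.57 under harringtonine (0.54) and -3.74 with puromycin. The first lay within 1 standard error of the value of Hspe1 and the second within 1 standard error of that of Hsph1, and their order changed without DMDA-PatA replicate 2 and without control replicate 1 or harringtonine replicate 1. Hspe1, whose ORF of 306 nt is the shortest, went from 259 and 252 to 20.2 and 21.9 with DMDA-PatA, 31.5 and 34.3 under harringtonine and 74.4 and 83.3 with puromycin. The log2 fold changes of Hspe1 were -3.60, -2.95 and -1.69, and the medians of the 651 ORFs of 200 to 400 nt were -3.59, -1.34 and -1.01. Hspe1 thus had the smallest decrease of the 10 with puromycin, also without any 1 library, while lying below the median of its own length class under harringtonine and puromycin and close to it with DMDA-PatA. Hspa9 lies on chromosome 18 from 34937414 to 34954357 on the minus strand, and its ORF went from 10061 and 9217 to 293 and 454 with DMDA-PatA, 1689 and 779 under harringtonine and 1255 and 1925 with puromycin. Its log2 fold changes of -4.69, -2.97 and -2.60 each lay within 1 standard error (0.53, 0.49 and 0.48) of the median of all transcripts, and without harringtonine replicate 1 the second value was -3.63.

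**Figure D2:**
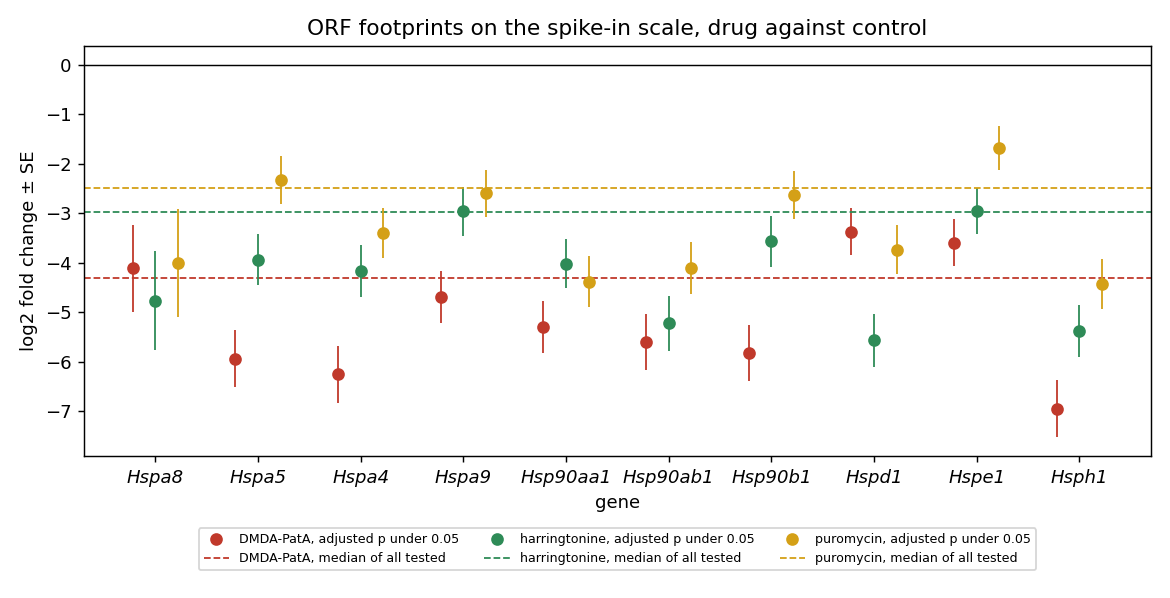
Log2 fold change of ORF footprints with its standard error for the 10 genes and 3 drugs on the spike-in scale, with the median over all 12499 transcripts tested as dashed lines. All 30 points are filled, since each passed the count test on this scale, while relative to the typical transcript Hspd1 with DMDA-PatA and Hspe1 with puromycin were called above 0 (Hspe1 with DMDA-PatA and Hspa5 with puromycin were above 0 without passing), and Hsph1 with DMDA-PatA is lowest at -6.95.

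Because nearly all transcripts fell, the genes were also compared with the typical transcript of the same libraries, by the same count test after scaling that takes out the common change (trimmed mean of M-values). This moved the median of all transcripts to -0.12, -0.12 and -0.039. The typical transcript stands for ORFs of all lengths, and the part of ORF length in the relative values was not tested for any drug. With DMDA-PatA, 6 of the 10 genes fell below the typical transcript, against 23.6% of all tested, and 1 lay above it, against 18.8%. The 6 were Hsph1 (-2.72), Hspa4 (-2.02), Hspa5 (-1.71), Hsp90b1 (-1.59), Hsp90ab1 (-1.40) and Hsp90aa1 (-1.10), with adjusted p of at most 0.000114 in edgeR. All are cytosolic or ER proteins, and a difference between compartments was not tested. Of the 23 ER folding genes described further on, 5 were called lower and 9 higher on this scale. Of the 9 mitochondrial chaperones and proteases tested there, 2 were called lower and 3 higher. Hspd1 lay above at 0.82 (adjusted p = 0.00147), while the relative log2 fold changes of the other mitochondrial chaperones, 0.64 for Hspe1 (adjusted p = 0.0685) and -0.48 for Hspa9 (adjusted p = 0.0708), did not pass. Hspa8 was at -0.092 with a standard error of 1.14, which is too wide to place it. Hspe1 did pass without harringtonine replicate 1 or 2, and Hspa9 without puromycin replicate 2, so that the calls of these genes changed with single libraries that are not part of the comparison.

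Under harringtonine, 7 genes fell below the typical transcript, against 30.0% of all tested, and none lay above it, against 26.6%. None lay above by DESeq2 or limma either, or at an unadjusted p under 0.05 in edgeR. The genes were Hspd1 (-2.68), Hsph1 (-2.58), Hsp90ab1 (-2.36), Hspa4 (-1.37), Hsp90aa1 (-1.17), Hspa5 (-1.16) and Hsp90b1 (-0.69). The last did not pass without control replicate 1 (adjusted p = 0.129 in edgeR) or without harringtonine replicate 1 (adjusted p = 0.109). With puromycin, 5 genes fell below, against 24.9%, namely Hsph1 (-1.99), Hsp90aa1 (-1.94), Hsp90ab1 (-1.66), Hspd1 (-1.27) and Hspa4 (-0.95). Hspe1 lay above at 0.76 (adjusted p = 0.0139 in edgeR), against 24.3% of all tested, and this call was lost without control replicate 1, control replicate 2 or puromycin replicate 2 (adjusted p = 0.0942, 0.0546 and 0.134). The ER chaperones did not pass with puromycin, with 0.12 for Hspa5 (adjusted p = 0.756) and -0.17 for Hsp90b1 (adjusted p = 0.55). The value of Hspa5 was called lower at -0.68 without puromycin replicate 2 and higher at 0.70 without puromycin replicate 1, so that the direction rested on which library was kept. In all 3 comparisons Hsph1, Hspa4, Hsp90aa1 and Hsp90ab1 were below the typical transcript, and Hspa9 passed in none of them.

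**Figure D3:**
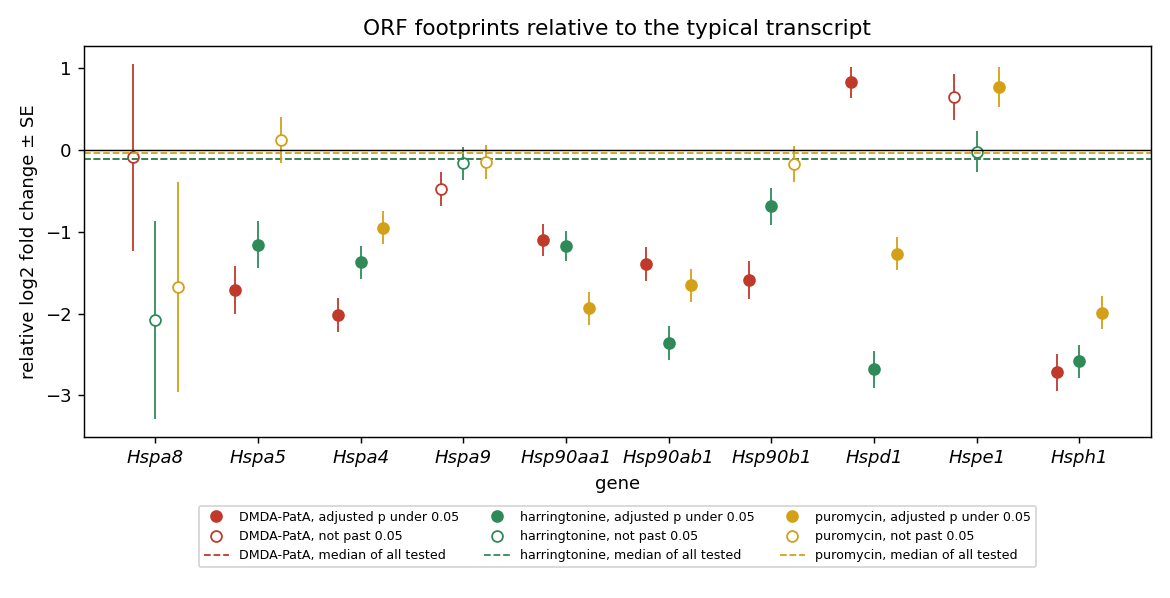
Log2 fold change of ORF footprints relative to the typical transcript, with its standard error, for the 10 genes and 3 drugs (filled, adjusted p under 0.05 in edgeR; open, not past it; dashed lines, medians of all 12499 transcripts). Hsph1, Hspa4, Hsp90aa1 and Hsp90ab1 lie below with each drug, while Hspd1 is above with DMDA-PatA at 0.82 and below under harringtonine at -2.68.

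Hspa5 had the most 5' UTR footprints of the 10 genes in the control, on a leader of 227 nt. It carried 2935 and 3305 normalized footprints in the control (2490 and 3646 reads). Per 100 nt these were 1293 and 1456, above the 1107 and 1030.1 per 100 nt of its ORF. In no other gene of the 10 but Hspa8, with its few reads, was the 5' UTR denser than the ORF in either control library. The 5' UTR held 11.9% and 14.0% of the control reads of the Hspa5 transcript (95% Wilson intervals 11.5% to 12.3% and 13.6% to 14.5%), a larger share than in 83.6% and 85.4% of the 8781 coding transcripts with at least 200 control reads, whose medians were 1.35% and 1.39%. In the transcriptome libraries the share was 3.74% and 4.05%. The window counts above found every window of this 5' UTR to be unique.

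The 5' UTR footprints of Hspa5 changed less than those on its ORF. This difference is tested further on as a ratio, which rose on most transcripts tested. With DMDA-PatA 1438 and 1925 normalized footprints were left, both below the controls, and the log2 fold change of -0.89 (standard error 0.43) did not pass the test over 6647 5' UTRs (adjusted p = 0.0754 in edgeR). Without DMDA-PatA replicate 2 the value was -1.12 and passed (adjusted p = 0.0408 in edgeR). Under harringtonine the 5' UTR of Hspa5 carried 2947 and 2304 and with puromycin 1977 and 4203, with log2 fold changes of -0.25 and -0.013. Neither passed, and the puromycin libraries lay on either side of the controls.

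**Figure D4:**
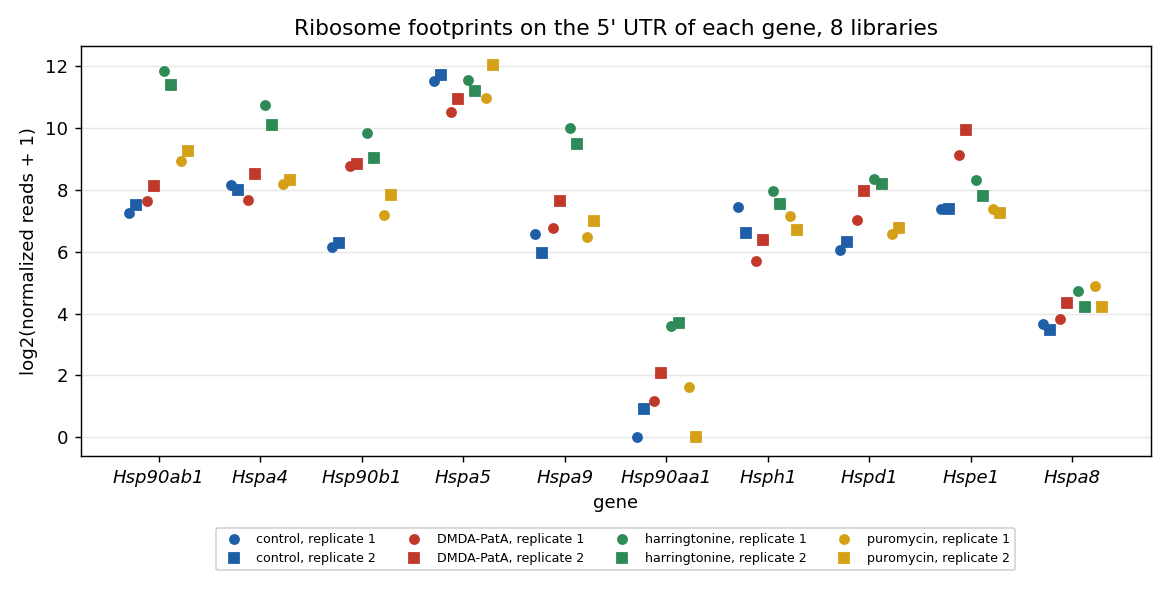
Normalized ribosome footprints on the 5' UTR of the 10 genes, as log2(normalized reads + 1), for the 8 ribosome profiling libraries, in the gene order of the ORF plot. The control libraries of Hspa5 carry 2935 and 3305 normalized footprints, more than the 5' UTR of any other of the 10 genes in the control, and the harringtonine libraries of Hsp90ab1 reach 3646 and 2642.

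Among the other 9 genes, 5' UTR footprints rose with DMDA-PatA on 3, against 14.7% of all 5' UTRs tested, and none of the 10 was called lower, against 29.0%. In edgeR 2 of the 10, Hspa5 and Hsph1, were lower at an unadjusted p under 0.05, and DESeq2 and limma called 0. The median of the 10 was 0.78, against -0.48 over all 5' UTRs. Hsp90b1 went from 69.6 and 76.1 to 432 and 450.5 normalized footprints (log2 fold change 2.59, standard error 0.47). Hspe1 went from 166 and 167 to 559 and 962 (2.19, standard error 0.46). Both drug libraries lay well above both controls in these genes. Hspd1 went from 64.8 and 78.9 to 128 and 248 (1.38, adjusted p = 0.00936 in edgeR), a call lost without control replicate 1, control replicate 2 or DMDA-PatA replicate 2 (adjusted p = 0.133, 0.0665 and 0.152). The number of genes called higher was 5 with the size factors of the DMDA-PatA and harringtonine libraries exchanged (a check on the scaling) and 7 after scaling to the typical 5' UTR. Hspa9 (93.1 and 61.6 in the control, 107 and 196 with DMDA-PatA) and Hsp90ab1 (149.7 and 179, then 198 and 274) had both drug libraries above both controls without passing. Hsph1 had both below them (171 and 97.0, then 51.1 and 81.2, log2 fold change -1.02, adjusted p = 0.0609 in edgeR). That value passed when DMDA-PatA replicate 2, harringtonine replicate 1 or harringtonine replicate 2 was left out. Hspa4 (283 and 252, then 203 and 365) and Hspa8 (11.8 and 9.97, then 13.3 and 19.5) did not pass either (0.085 and 0.58). Hsp90aa1 had 0 and 1 control reads and 2 and 4 with the drug, a ratio of 4.16 (95% exact counting interval 0.504 to 191).

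Under harringtonine, 5' UTR footprints rose on 6 genes, against 35.1% of all 5' UTRs tested, and none was called lower by edgeR, DESeq2 or limma, or at an unadjusted p under 0.05 in edgeR, against 5.21%. The median of the 10 was 2.24, against 0.88 over all 5' UTRs. The 5' UTR of Hsp90ab1, 105 nt long, carried 149.7 and 179 normalized footprints in the control and 3646 and 2642 under harringtonine, 19.2 fold more (log2 fold change 4.26, standard error 0.49, adjusted p = 5e-15 in edgeR). In each harringtonine library the 5' UTR of Hsp90ab1 then held more footprints than its ORF. How many of these lay beside the start codon was not tested. Hspa9 went from 93.1 and 61.6 to 1022 and 710.5, and Hsp90b1 from 69.6 and 76.1 to 918 and 517. Hspa4 went from 283 and 252 to 1715 and 1079, and Hspd1 from 64.8 and 78.9 to 321 and 292. All these drug libraries lay above both controls, with log2 fold changes of 3.49, 3.30, 2.38 and 2.09. Hsp90aa1 was called too, from 0 and 1 control reads and 11 and 17 reads under harringtonine, a ratio of 22.6 with a 95% exact counting interval of 3.74 to 925. Hspa8, Hsph1 and Hspe1 did not pass (0.96, 0.70 and 0.68), like Hspa5. After scaling to the typical 5' UTR, Hspa5 was called lower at -0.99, and Hspe1 and Hsph1 turned to -0.076 and -0.032 without being called.

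With puromycin only Hsp90ab1 was called, going from 149.7 and 179 to 486 and 608 normalized footprints on its 5' UTR (log2 fold change 1.74, adjusted p = 0.0182 in edgeR). Of all 5' UTRs tested 0.557% were called higher and 0.406% lower, and none of the 10 was lower by edgeR, DESeq2 or limma, or at an unadjusted p under 0.05 in edgeR. The median of the 10 was 0.48, against 0.070 over all 5' UTRs. The call of Hsp90ab1 was lost with the replicate number as a block (adjusted p = 0.0699) and without either control or either puromycin replicate (adjusted p from 0.134 to 0.461). Hsp90b1 went from 69.6 and 76.1 to 145 and 224 without passing (adjusted p = 0.157 in edgeR). It passed when either DMDA-PatA replicate was left out, as well as after scaling to the typical 5' UTR. The log2 fold changes of the 8 others ran from -0.15 to 1.05.

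The ratio of 5' UTR to ORF footprints within a library does not depend on the spike-in scale. It rose on 10 of 10 genes with either of DMDA-PatA and harringtonine and on 9 with puromycin, against 93.5%, 95.4% and 78.5% of 6497 transcripts tested, so that the counts were close to those of all transcripts. The exception with puromycin was Hsp90aa1 (fitted log2 change 4.43, adjusted p = 0.0569 in edgeR). It passed without control replicate 2 or puromycin replicate 2, and its puromycin libraries had 1 and 0 reads on the 5' UTR. The medians of the 10 genes were 5.84, 6.59 and 4.08 on the log2 scale, and those of all transcripts 4.34, 3.98 and 2.52. The largest increase with DMDA-PatA was that of Hsp90b1 (8.41, standard error 0.39), although Hspa8 with its few reads stood above it without DMDA-PatA replicate 2, and the largest under harringtonine was that of Hsp90ab1 (9.50, standard error 0.38). For Hspa5 the ratio rose by 5.05, 3.81 and 2.37. This was above the median of all transcripts with DMDA-PatA and slightly below it under harringtonine and puromycin. For Hspd1 the ratio rose by 4.73, 7.65 and 4.20.

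In shares of a transcript's reads, the 5' UTR of Hspa5 held 82.9% and 82.8% with DMDA-PatA, 60.4% and 73.7% under harringtonine and 45.5% and 41.2% with puromycin. For Hsp90b1 the share was 0.269% and 0.405% in the control, and DMDA-PatA brought it to 56.2% and 50.0%. Hsp90ab1 had 0.210% and 0.280% in the control and 62.5% and 64.8% under harringtonine. The reads left on Hspa5 with each drug thus lay mostly or in large part before the start codon. So did those on Hsp90b1 with DMDA-PatA and on Hsp90ab1 under harringtonine. With puromycin the share was 12.7% and 11.9% for Hsp90ab1 and 5.15% and 4.72% for Hsp90b1, so most reads left lay on the ORF. The same held for Hsp90ab1 with DMDA-PatA and for Hsp90b1 under harringtonine. Pooled over all coding transcripts, 5' UTRs took up 37.3% and 37.7% of the reads after DMDA-PatA and 28.5% and 32.2% after harringtonine. After puromycin the pooled share was 20.1% and 17.4%, against 3.98% and 4.25% without drug. A rise was thus not particular to these genes. The shares of Hspa5 exceeded the pooled ones with each drug, those of Hsp90b1 with DMDA-PatA and those of Hsp90ab1 under harringtonine. Those of Hsp90ab1 with DMDA-PatA and puromycin and of Hsp90b1 with puromycin lay below the pooled ones. Under harringtonine Hsp90b1 was above the pooled share in replicate 1 and below it in replicate 2. Hspe1 held 39.0% and 39.8% on its 5' UTR in the control, then 96.5% and 97.7% with DMDA-PatA, and in the transcriptome libraries 55.1% and 61.5%. Its ORF is the one of which only 15.2% of windows are unique, against 95.6% of its 5' UTR. The 95% Wilson intervals of these shares reached at most 2.13 percentage points to either side for Hspa5, 2.94 for Hsp90b1, 1.63 for Hsp90ab1 and 8.36 for Hspe1 in the ribosome profiling libraries.

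**Figure D5:**
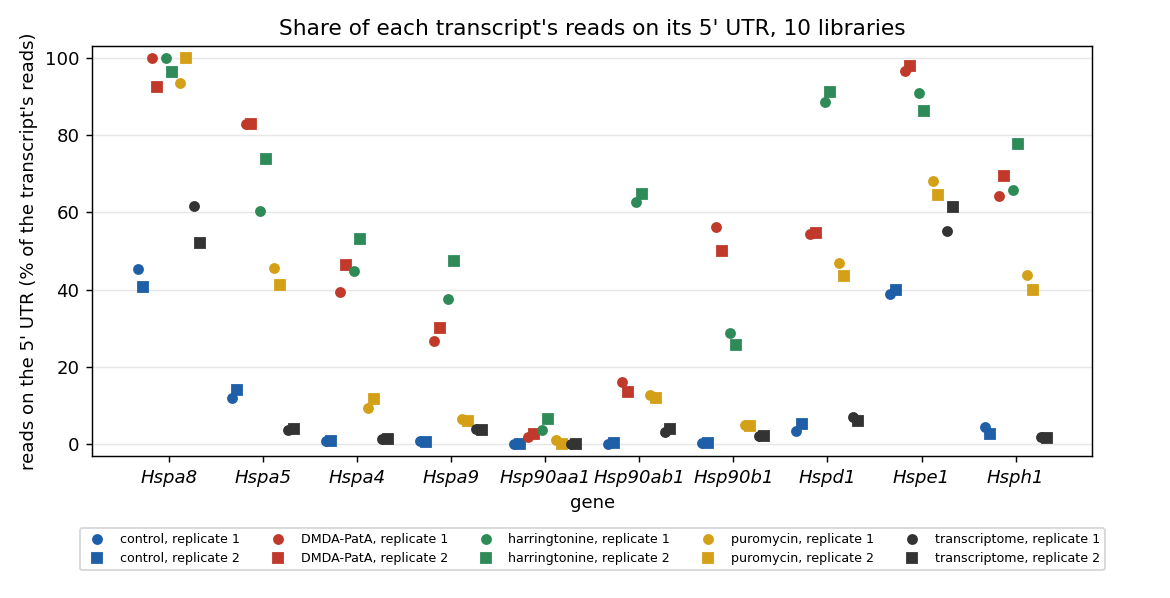
Share of the reads of each transcript that lie on its 5' UTR, in percent, for the 10 genes in all 10 libraries (circles replicate 1, squares replicate 2). The control libraries of Hspa5 are at 11.9% and 14.0% and its DMDA-PatA libraries at 82.9% and 82.8%.

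The wider chaperone network was followed with 6 lists of 104 genes, of which 94 passed the filter on ORF reads. DMDA-PatA lowered the ORF footprints of 94 of them, harringtonine of 91 and puromycin of 89 on the spike-in scale. The shares of all transcripts called lower were 99.3%, 92.9% and 90.1%, which is the background of each list below, so that these counts are close to those of all transcripts. None of the 94 rose by edgeR, DESeq2 or limma, or at an unadjusted p under 0.05 in edgeR. Their medians were -4.31, -3.05 and -2.42 on the log2 scale, close to those of all transcripts. Relative to the typical transcript, 31 of the 94 were called lower and 23 higher with DMDA-PatA, against 23.6% and 18.8% of all transcripts tested, and DESeq2 and limma each called 15 higher. Under harringtonine 34 were lower and 30 higher, against 30.0% and 26.6%, and with puromycin 33 and 19, against 24.9% and 24.3%. Of the 55 with a tested 5' UTR, 15 rose and 3 fell with DMDA-PatA, against 14.7% and 29.0% of all 5' UTRs tested, and 10 rose by DESeq2. Under harringtonine 35 rose, against 35.1%, and none fell by edgeR, DESeq2 or limma, or at an unadjusted p under 0.05 in edgeR, against 5.21%. None was called with puromycin. In edgeR 5 of these 55 had an unadjusted p under 0.05 with puromycin, 5 in DESeq2 and 6 in limma, and none was called by any of the 3 after adjustment, while scaling to the typical 5' UTR called 2.

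Among the J-domain cochaperones, which hand clients to Hsp70, 25 of 26 were tested and all fell with DMDA-PatA and harringtonine, and 23 with puromycin, near the 99.3%, 92.9% and 90.1% of all transcripts. Their log2 fold changes on the ORF with DMDA-PatA ran from Dnaja1 at -6.39 to Dnajc8 at -3.15. Those under harringtonine ran from Dnajc1 at -6.91 to Dnajb2 at -1.09, and those with puromycin from Dnaja1 at -4.31 to Dnajc19 at -0.85, which did not pass. Of the exchange factors and Hsp90 cochaperones, 25 of 26 were tested. All 25 fell with DMDA-PatA, from Fkbp4 at -6.26 to Fkbp8 at -1.76. Fkbp8, an immunophilin of the mitochondrial surface, was the 1 of the 25 that did not pass under harringtonine (0.62) or puromycin (-0.040), and it lay 3.49 on the log2 scale above the typical transcript under harringtonine. At the other end were Fkbp4, a partner of Hsp90 on steroid receptors, with -4.50 under harringtonine, and Stip1, which joins Hsp70 and Hsp90, at -3.87 with puromycin.

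The 23 ER folding genes all fell with DMDA-PatA and harringtonine, and 22 with puromycin, against the same shares of all transcripts (99.3%, 92.9% and 90.1%). With DMDA-PatA the lectin chaperone Canx was lowest at -5.55 and the oxidase Ero1lb highest at -2.83. Under harringtonine Hyou1, the Hsp110 protein of the ER, was lowest at -5.78 and Fkbp2 highest at -0.89. With puromycin the glucosidase subunit Ganab was lowest at -4.51 and Sdf2l1 highest at -1.09. Sdf2l1 was called lower (adjusted p = 0.0126 in edgeR), so the gene not called with puromycin was another of the list. On the 5' UTR, the calcium binding chaperone Calr rose most of this list with DMDA-PatA (4.14) and Ppib under harringtonine (3.46). All 9 mitochondrial chaperones and proteases tested fell with each drug, with the highest value for Clpb (from -3.15 with DMDA-PatA to -1.72 under harringtonine). The lowest was Clpx with DMDA-PatA (-5.63), and Trap1, the mitochondrial Hsp90, under harringtonine (-4.75) and puromycin (-4.59). Of the other Hsp70 family genes 4 of 9 passed the filter, and all 4 fell with each drug. Hspa13, an Hsp70 of microsomes, was the highest each time (-2.97, -1.63 and -1.30). The lowest was Hspa2 with DMDA-PatA (-5.12) and Hspa14 under harringtonine (-4.27) and puromycin (-3.73). The heat inducible Hspa1a and Hspa1b were under the filter on the ORF, while the 5' UTR of Hspa1b passed it. Copies of these ORFs, whose reads would have been left out, were not searched for.

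Of the heat shock factors and small heat shock proteins 8 of 10 were tested, and 8 fell with DMDA-PatA, 6 under harringtonine and 7 with puromycin. Hspb1, a small heat shock protein, was the highest under harringtonine (-0.23, adjusted p = 0.614 in edgeR) and puromycin (-0.51, adjusted p = 0.254). Hspb2 was the highest with DMDA-PatA (-2.36). Hspb8 was the lowest with DMDA-PatA (-5.45) and harringtonine (-4.17), and Hsf1, the main transcription factor of the heat shock response, with puromycin (-4.07). The 5' UTR of Hsf2 rose by 5.14 under harringtonine, the most of this list.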

How the data were processed

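Ribosome footprints of 8 libraries and whole transcriptome reads of 2 libraries, sequenced on SOLiD, had been mapped by the authors to mm10 with LifeScope. Matches of low mapping quality and reads with more than 1 match had been left out, and the reads placed on the 5' UTR, ORF and 3' UTR of 1 transcript per gene (pseudogenes were left out). Per the labels, Picard 1.38 was used as well. The deposited values are a signal, namely reads divided by a size factor, which the authors had taken from spike-in RNA for the footprints and between the replicates for the transcriptome.

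Dividing by the value of 1 read gave whole reads for 100% of the values (within 0.01 reads). Samples were grouped by their labels, and transcripts were matched to GENCODE M21. The recovered reads were tested with edgeR 4.0.16 in R 4.3.3 (by quasi-likelihood, at an adjusted p under 0.05 after Benjamini and Hochberg, with all 8 footprint libraries in 1 fit, at least 10 reads in at least 2 libraries), with the deposited scaling as offset or with TMM. The ratio of 5' UTR to ORF was tested with the library as a term. Standard errors of the edgeR fits were derived from the test, as the absolute log2 fold change over the square root of its F statistic. The fits were tested on simulated data. Alternatives used limma 3.58.1 on log2(value + 1) or log2(value + 0.5), DESeq2 1.42.0, other filters and other scalings. Windows of 30 nt were counted on GRCm38, and copies of ORFs were searched with blastn 2.17.0. The 10 genes, and the rule to name of each list the highest and lowest gene and of Hspa5 the 3 nearest ORFs, were chosen with earlier results of these data known, and so were the lists. With 2 libraries a condition and 1027314 to 11161453 reads a footprint library, genes with few reads such as Hspa8 are imprecise.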

Additional observations from a re-analysis of the deposited data

Results flagged for a closer look

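Reads on 3' UTRs were used in none of the comparisons. The 3' UTR of Hspa4 carried 26.4 and 14.0 normalized footprints with harringtonine (mean 20.2) against 9.43 and 9.97 in the control, and that of Hspa5 carried 14.2 and 11.9 (mean 13.1) against 9.43 and 8.16. In both genes both harringtonine libraries lay above both control libraries. These were the only 3' UTRs among the 10 genes with such a signal at the read minimum of 10, and the difference was not tested.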

How the results depend on the processing

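On the spike-in scale all 10 genes were called lower on the ORF with each drug by every tool and set of libraries tried, except that Hspa8 was not tested when at least 50 reads were required, which left 9 of 9. Scaling to the typical transcript, by TMM or by median of ratios, left 6 called lower with DMDA-PatA and 5 with puromycin. It turned the direction of Hspd1 with DMDA-PatA (0.82 and 0.89), of Hspe1 with DMDA-PatA (0.64 and 0.72) and with puromycin (0.76 and 0.82), of Hspa5 with puromycin (0.12 and 0.17) and, by median of ratios, of Hspe1 with harringtonine (0.049). Of all 12499 ORFs, TMM called 2945, 3749 and 3112 lower with DMDA-PatA, harringtonine and puromycin and median of ratios 2688, 3511 and 2941, against 12414, 11608 and 11266 on the spike-in scale, since by construction it takes out the common change. Relative to the typical transcript, 2 genes in place of 1 lay above with DMDA-PatA when at least 50 reads were required or libraries were scaled to equal totals, and leaving out 1 library gave 1 to 2. With puromycin none in place of 1 lay above by DESeq2 and limma, and 0 to 2 without 1 library. The cause was not tested. Small relative changes turned their sign, namely Hspa8 with DMDA-PatA at equal totals (0.0045), Hspe1 with harringtonine at 50 reads (0.078) and Hspa5 with puromycin by limma (-0.027). Without 1 library the relative values ran from -5.44 to 0.79 for Hspa8 with DMDA-PatA, from -0.29 to 0.045 for Hspa9 and -0.47 to 0.44 for Hspe1 with harringtonine, and from -0.68 to 0.70 for Hspa5, -0.47 to 0.19 for Hspa9 and -0.58 to 0.22 for Hsp90b1 with puromycin.

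On the 5' UTR, DMDA-PatA raised 5 genes with the size factors exchanged and 7 under TMM or median of ratios, in place of 3, and 0 to 2 genes were called lower without 1 library. With harringtonine, TMM and median of ratios called 1 gene lower in place of 0 and turned Hspe1 (-0.076 and -0.11) and Hsph1 (-0.032 and -0.062). With puromycin 2 genes in place of 1 were called higher with exchanged factors, TMM or median of ratios, and 0 to 2 without 1 library. Without 1 library the log2 fold change on the 5' UTR ran from -0.40 to 0.45 for Hspa4 with DMDA-PatA, and with puromycin from -0.66 to 0.43 for Hspa5, -2.50 to 2.94 for Hsp90aa1 and -0.50 to 0.31 for Hsph1. Over all 5' UTRs, TMM and median of ratios called 1760 and 1761 higher with DMDA-PatA in place of 976, 1411 and 1359 higher with harringtonine in place of 2333, and 1242 and 1273 lower in place of 346 (644 with exchanged factors). Requiring 50 reads left 3170 5' UTRs with 1181 lower and 483 higher with DMDA-PatA (1926 lower without it) and 228 lower and 1353 higher with harringtonine, and 3046 ratios with 2971, 2988 and 2775 higher in place of 6077, 6200 and 5099. With puromycin 37 5' UTRs were called higher and 27 lower, against 96 and 48 or 110 and 49 by limma at a pseudocount of 1 or 0.5, 80 and 70 with exchanged factors, 127 and 156 under TMM and 117 and 185 by median of ratios. Without puromycin replicate 1, 4 were called higher and 8 lower, without DMDA-PatA replicate 2, 641 were higher with DMDA-PatA, and without control replicate 2, 1141 were higher with harringtonine. Without DMDA-PatA replicate 2, 1768 ORFs lay below and 1330 above the typical transcript, in place of 2945 and 2354. The cause was not tested.

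The main fits did not use the replicate numbers as pairs. Deviations of same-numbered footprint libraries correlated between -0.02 and 0.06, which shows no sign of pairing but cannot exclude it. Translation efficiency took same-numbered footprint and transcriptome libraries together, and their pairing was not tested. In the fit with a replicate block, 14 5' UTRs were called higher and 15 lower with puromycin, and the count for the 10 genes was 0 in place of 1. The block changed no other count of the 10 genes by over 1.5 times, the counts on the ORF staying at 10, 10 and 10. Scaling the transcriptome by medians gave a translation efficiency of 1.95 for Hspa8, 0.995 for Hspa5, 1.81 for Hspa4, 2.95 for Hspa9, 6.53 for Hsp90aa1, 2.61 for Hsp90ab1, 1.07 for Hsp90b1, 1.96 for Hspd1, 3.13 for Hspe1 and 2.40 for Hsph1. Of 1792 values of single genes under an alternative, 1689 kept their direction and side of the threshold. With few reads, as on the ORF of Hspa8 and the 5' UTR of Hsp90aa1, depth limits what can be called.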
